A study of Homo sapiens with 12 samples.

Results

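ANKRD1, CRIM1, DDAH1, ASAP1, MYOF, FJX1, NT5E, DOCK5, CCDC80 and RBMS3 are 10 genes that appear on published lists of targets of the transcriptional co-activators YAP and TAZ. They were chosen by name as further canonical YAP targets, and each was read from the locus of the expression table that lists its symbol, so that 10 of 31585 loci are described. The rule used no measured value and kept targets that did not respond, but the genes were chosen with earlier results of these data known. The cells were A375, a human melanoma cell line, transduced with an MSCV-IRES-Hygro retrovirus and kept as stable, hygromycin-selected populations, 1 per vector. Control cells carried the empty vector. YAPS127A cells carried human YAP in which the LATS phosphorylation site S127 is changed to alanine, and YAP2SA cells carried YAP with both S127A and S381A. YAPS127A,S94A cells carried S127A together with S94A, a change that prevents YAP from binding TEADs. All 4 groups also kept the endogenous YAP and TAZ of A375 cells. RNA was sequenced from 3 libraries per group, 12 in all, and the series text describes the 3 as separately plated biological replicates of each cell population, lysed 24 h after plating, whereas the methods of the study give a longer culture. The series text and 1 field of the YAP2SA records also list S94A for these cells, but the library titles do not, and the titles were followed.

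YAP and TAZ are co-activators without a DNA-binding domain of their own. The Hippo pathway kinases LATS phosphorylate them on several serines, which retains them in the cytoplasm or leads to their degradation, and when this phosphorylation is lost they enter the nucleus and activate transcription mainly through the TEAD family of DNA-binding factors. In melanoma cells, YAP and TAZ activity has been linked to invasion and metastasis. TEADs recognise the MCAT element, whose core reads GGAATG, or CATTCC on the other strand. They often bind DNA near AP-1 factors, whose element was searched for here as TGANTCA, where N is any base. Target genes of YAP are commonly used as a readout of its activity, with CYR61, CTGF and ANKRD1 the most common among them.

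The upstream sequence of ANKRD1 is shown because ANKRD1 changed by the largest amount and its promoter holds the MCAT core more than once, that of CCDC80 because CCDC80 rose without such a match, and the stretch of DDAH1 because it holds the only other match among these genes. They are RefSeq sequences on GRCh38.p14, read on the minus strand of each chromosome, which is the strand of the gene, with the MCAT core in capitals. ANKRD1 is given at chr10:90921088-90921337, the 250 bases before the start of its transcript. CCDC80 is given at chr3:112641144-112641393, also the 250 bases before its start. DDAH1 is given at chr1:85578386-85578445, from 245 to 186 bases before 1 of its starts.
ANKRD1: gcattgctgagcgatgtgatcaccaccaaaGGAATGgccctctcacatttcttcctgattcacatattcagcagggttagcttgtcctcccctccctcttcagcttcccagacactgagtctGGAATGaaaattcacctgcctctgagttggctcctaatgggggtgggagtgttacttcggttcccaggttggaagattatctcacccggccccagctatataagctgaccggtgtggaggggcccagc
CCDC80: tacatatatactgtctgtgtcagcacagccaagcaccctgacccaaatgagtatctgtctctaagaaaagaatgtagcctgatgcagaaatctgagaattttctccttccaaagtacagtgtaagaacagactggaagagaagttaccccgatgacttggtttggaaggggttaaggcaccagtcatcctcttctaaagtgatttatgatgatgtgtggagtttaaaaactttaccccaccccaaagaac
DDAH1: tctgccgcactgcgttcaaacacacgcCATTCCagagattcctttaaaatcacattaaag

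The promoter table held windows for 7 of the 10 genes, 9 windows in all. CRIM1, ASAP1 and DOCK5 had none. GGAATG or CATTCC was found in the 250 bases upstream of 2 of these 7 genes. ANKRD1 had GGAATG with its first base 220 and 128 bases before the start, and DDAH1 had CATTCC 218 bases before 1 of its starts. Of all 35116 windows of this length, 11.9% held the motif on either strand. TGANTCA was also found upstream of these same genes, as TGATTCA 195 bases before the start of ANKRD1 and as TGAATCA 212 bases before another start of DDAH1, and in 6.57% of all windows. This pattern leaves the middle base open, and in these matches it was T or A, not C or G. A match gives the letters only and is not a binding site, and distal enhancers lie outside these windows. The study measured ANKRD1 by qPCR as well, with the primers printed here because they show which part of the transcript was amplified.
ANKRD1 forward: ggtgagactgaaccgctataag
ANKRD1 reverse: ggctgtcgaatattgctttgg
The forward primer lay in exon 8 and the reverse primer in exon 9 of the 9 exons, and the 140-base product lay inside the coding sequence, spanning chr10:92672667-92675372 on GRCh37. Those qPCR values were not used here.

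Levels are given as FPKM, fragments scaled to transcript length and to the number of mapped reads, recovered from the deposited log2(FPKM + 1) values. Summed over loci, FPKM ranged from 790865 to 901558 per library, and 20161 to 20656 loci per library were above 0. The table holds no counts, so the depth behind a value is unknown, and the spread between the 3 libraries is the only measure of error. With 1 cell population per vector, this is the spread between platings of that population. An effect of the vector therefore cannot be told apart from a difference between the populations. Pearson correlation between libraries of 1 group, across the loci tested, ranged from 0.960 to 0.975. The YAP1 locus, whose value sums endogenous and vector-derived transcripts, was at 34.1, 33.0 and 172 FPKM in Control replicates 1, 2 and 3. It was at 149 to 162 FPKM in YAPS127A,S94A, 159 to 187 in YAPS127A and 130 to 149 in YAP2SA, so the library labelled Control replicate 3 had the YAP1 level of the cells with a YAP vector and goes against its label. Among the 3 Control libraries it was the lowest for ANKRD1, MYOF, FJX1 and DOCK5, the highest for DDAH1, NT5E, CCDC80 and RBMS3, and between the others for CRIM1 and ASAP1. Results against Control are given with all 3 Control libraries, and those without this library are given beside them or with the counts over the 10 genes.

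Markers of the lineage differed between the groups. SOX10, a transcription factor that defines the melanocyte lineage, was at 234 to 281 FPKM in Control and 4.53 to 7.25 in YAP2SA, and S100B at 41.3 to 51.7 in Control and 0.605 to 1.03 in YAP2SA. MITF, another regulator of melanocytes, was at 5.01 to 11.02 FPKM in Control and 30.1 to 41.05 in YAP2SA. SOX9, a related factor, had a mean of 0.462 FPKM in Control, 3.52 in YAPS127A and 10.3 in YAP2SA, so the listed markers did not go 1 way. PMEL, MLANA, TYR and DCT, which define pigmented cells, were under 1 FPKM in all groups. The 8 melanoma and melanocyte markers summed to 281 to 345 FPKM in Control, 301 to 336 in YAPS127A,S94A, 234 to 303 in YAPS127A and 50.2 to 57.4 in YAP2SA. The 5 fibroblast markers summed to 3.81 to 6.05 FPKM in Control, 4.43 to 5.61 in YAPS127A,S94A, 13.4 to 14.9 in YAPS127A and 42.8 to 50.2 in YAP2SA. Of these, COL1A1 had a mean of 0.322 FPKM in Control and 33.4 in YAP2SA, while COL1A2 and DCN were under 1 FPKM in every group. The 3 keratinocyte markers summed to 6.24 to 7.65 FPKM in Control, 7.02 to 7.42 in YAPS127A,S94A, 6.46 to 11.3 in YAPS127A and 2.04 to 2.15 in YAP2SA. KRT14 made up most of this sum in Control, with a mean of 6.87 FPKM, and was at 0.434 in YAP2SA, while KRT5 had a mean of 0.0282 in Control and 1.56 in YAP2SA. Endothelial markers summed to at most 0.593 FPKM in any group and leukocyte markers to at most 0.0762. In YAP2SA, where 9 of the target genes below were higher, the melanoma, fibroblast and keratinocyte sums all lay apart from Control. In YAPS127A, where 7 were higher, the fibroblast sum lay apart from Control and the melanoma and keratinocyte sums overlapped with it. SOX10, with a mean of 263 FPKM in Control, made up most of the melanoma sum there, and its ranges overlapped. Other markers in these sums lay apart from Control in YAPS127A. MITF was higher, at 11.9 to 14.6 FPKM, as was SOX9, at 2.66 to 4.36. S100B was lower, at 29.996 to 40.96 FPKM. KRT5 was higher, at 0.193 to 0.376 FPKM, while KRT14 overlapped. The part of the sums and single markers that moved in those results was not tested.

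In YAP2SA cells, 9 of the 10 target genes were higher than in Control and none was lower, beside 22.9% of all loci tested called higher and 19.5% called lower. The rise ranged from 22.99 times in mean FPKM for ANKRD1 to 1.19 times for DOCK5. In YAPS127A cells 7 of the 10 were higher than in Control (4.56% of all loci tested) and none was lower (1.75%). With YAPS127A,S94A none passed the test against Control, where only 0.0864% of all loci were called higher and 0.093% lower. With shares this small, no call among 10 genes says little about them. RBMS3 did not pass in any comparison. ANKRD1 is counted among the genes called, although it entered the test only through groups in which it was high. A change was called at a Benjamini-Hochberg adjusted p under 0.05 from limma over all 15055 loci tested, and log2 fold changes were taken between means of log2(FPKM + 1), so that the change of low genes such as ANKRD1 and CCDC80 is understated. In the sentences below the 3 values of a group are in the order of replicates 1, 2 and 3. As these are bulk libraries, a larger share of cells with a transcript and more of it per cell cannot be told apart.

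**Figure D1:**
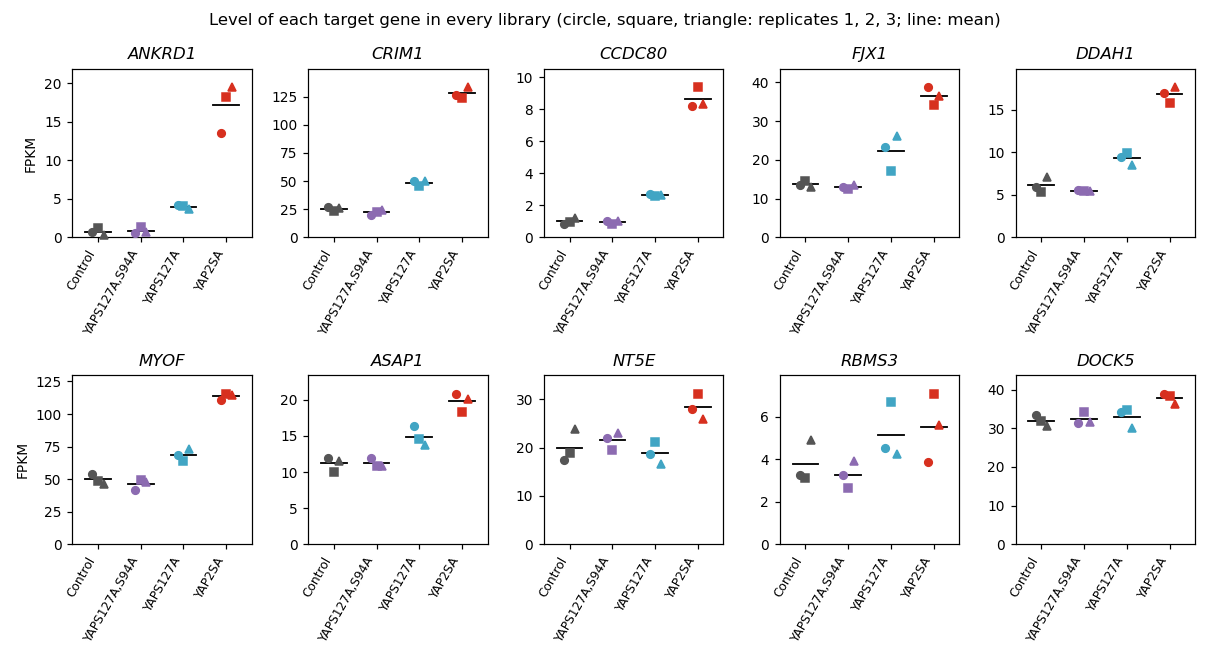
FPKM (vertical axes, linear and from 0) of the 10 target genes in the 12 libraries, by group. Points are single libraries and lines are group means. ANKRD1, CRIM1, CCDC80, FJX1, DDAH1, MYOF and ASAP1 step up from Control to YAPS127A to YAP2SA, with means from 0.744 to 17.1 FPKM for ANKRD1, while RBMS3 overlaps between Control and YAP2SA.

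In Control cells the target genes spanned a wide range of levels. Since FPKM is per length, levels can be compared between genes. Mean FPKM in Control was 49.8 for MYOF, 31.9 for DOCK5, 25.5 for CRIM1, 20.0 for NT5E, 13.7 for FJX1, 11.2 for ASAP1, 6.13 for DDAH1, 3.77 for RBMS3, 0.994 for CCDC80 and 0.744 for ANKRD1. Neighbours in this order had overlapping ranges only for CRIM1 and NT5E and for CCDC80 and ANKRD1. The order was different in YAP2SA, where CRIM1 was first with a mean of 128 FPKM, above MYOF with 114, and ANKRD1 had moved from the last place to the seventh. RBMS3 was last there, with 5.52 FPKM. All 10 genes entered the test. ANKRD1 reached 1 FPKM in 8 of the 12 libraries and CCDC80 in 9. The other 8 genes were at 1 FPKM or more in every library. ANKRD1 reached 1 FPKM in only 1 Control and 1 YAPS127A,S94A library, so it passed the filter on low values through the groups in which it was high. CCDC80 reached 1 FPKM in 1 Control and 2 YAPS127A,S94A libraries, which already met the filter.

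ANKRD1 encodes an ankyrin repeat protein of striated muscle and stressed cells that acts in the sarcomere and as a transcriptional cofactor in the nucleus. It is on chr10:92671853-92680844 of GRCh37, on the minus strand, with 9 exons. ANKRD1 was at 0.638, 1.26 and 0.335 FPKM in Control, 0.545, 1.39 and 0.722 in YAPS127A,S94A, 4.24, 4.09 and 3.67 in YAPS127A, and 13.6, 18.2 and 19.5 in YAP2SA. The Control and YAPS127A,S94A libraries overlapped at a low level, and every YAP2SA library lay above every YAPS127A library, which in turn lay above all of the others. Against Control the log2 fold change was 3.39 (SE 0.21, limma adjusted p = 4.2e-07) in YAP2SA and 1.55 (SE 0.21, limma adjusted p = 0.00148) in YAPS127A. ANKRD1 entered the test only through groups in which it was high, so these p-values are not free of that selection. Both calls held under all 21 alternatives, 1 of which dropped the filter on low values. The ratio of mean FPKM was 22.99 for YAP2SA with all Control libraries and 18.0 without the library labelled Control replicate 3. ANKRD1 was the gene with the largest change of the 10 in each of the 5 comparisons in which any passed the test.

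CCDC80 encodes a secreted protein of the extracellular matrix. It is on chr3:112315644-112368377, on the minus strand, with 8 exons. CCDC80 was at 0.830, 0.944 and 1.21 FPKM in Control, 1.03, 0.809 and 1.02 in YAPS127A,S94A, 2.71, 2.57 and 2.68 in YAPS127A, and 8.21, 9.43 and 8.34 in YAP2SA. Within each group the libraries lay close together, and the 3 levels (Control with YAPS127A,S94A, then YAPS127A, then YAP2SA) did not overlap. The log2 fold change was 2.28 (SE 0.09, limma adjusted p = 1.3e-08) in YAP2SA and 0.88 (SE 0.09, limma adjusted p = 0.000229) in YAPS127A, and the ratio of mean FPKM was 8.71 and 2.67. CCDC80 and ANKRD1 were the only 2 of the 10 that passed both the test and a 2-fold change of the mean in YAPS127A against Control, a rule met by 2.07% of all loci tested in the upward direction.

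CRIM1 encodes a transmembrane protein with cysteine-rich repeats that binds bone morphogenetic proteins. It is on chr2:36582921-36778278, on the plus strand, with 17 exons. CRIM1 was at 26.6, 23.7 and 26.2 FPKM in Control, 20.0, 22.9 and 24.1 in YAPS127A,S94A, 49.9, 45.4 and 49.7 in YAPS127A, and 126.7, 124 and 134 in YAP2SA. The YAPS127A and YAP2SA libraries stood apart from each other and from all Control libraries. CRIM1 rose by 2.29 on the log2 scale in YAP2SA (SE 0.08, limma adjusted p = 2.9e-09) and by 0.90 in YAPS127A (SE 0.08, limma adjusted p = 4.8e-05), which is 5.03 and 1.89 times in mean FPKM. Since CRIM1 was already well above the pseudocount in Control, its log2 fold change is little affected by it. CRIM1 was also the only one of the 10 with an unadjusted p under 0.05 in YAPS127A,S94A against Control, where it was slightly lower (log2 fold change -0.19, SE 0.08, unadjusted p = 0.0310, limma adjusted p = 1) and the groups overlapped.

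FJX1 is the human counterpart of Drosophila four-jointed, a kinase of the Golgi that acts on the Fat and Dachsous cadherins, whose pathway feeds into Hippo signalling in flies. It has 1 exon, on chr11:35640008-35642413, on the plus strand. FJX1 was at 13.4, 14.6 and 12.9 FPKM in Control, 13.0, 12.4 and 13.6 in YAPS127A,S94A, 23.4, 17.2 and 26.1 in YAPS127A, and 38.9, 34.1 and 36.5 in YAP2SA. No Control library reached the lowest YAPS127A library, replicate 2, and no YAPS127A library reached YAP2SA. The log2 fold change was 1.35 (SE 0.12, limma adjusted p = 7.6e-06) in YAP2SA and 0.64 (SE 0.12, limma adjusted p = 0.0108) in YAPS127A.

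NT5E encodes CD73, a cell surface enzyme that converts extracellular AMP to adenosine. It is on chr6:86159302-86205509, on the plus strand, with 9 exons. NT5E was at 17.4, 18.9 and 23.7 FPKM in Control, 21.9, 19.5 and 23.1 in YAPS127A,S94A, 18.7, 21.3 and 16.7 in YAPS127A, and 27.9, 31.2 and 25.9 in YAP2SA. Only the YAP2SA libraries stood apart, and the other 9 overlapped. NT5E rose by 0.49 on the log2 scale in YAP2SA (SE 0.12, limma adjusted p = 0.00886), or 1.42 times. In YAPS127A it differed from Control by -0.07 (95% interval -0.35 to 0.20, limma adjusted p = 0.811), and by 0.05 without the library labelled Control replicate 3, so that a rise in NT5E was seen with YAP2SA and was not detectable with YAPS127A. The difference between these mutants passed the test itself (0.56, SE 0.12, limma adjusted p = 0.00556).

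MYOF encodes myoferlin, a membrane protein of the ferlin family that takes part in membrane fusion and repair. It is on chr10:95066186-95242091, on the minus strand, with 54 exons. MYOF was at 54.3, 48.7 and 46.3 FPKM in Control, 41.6, 49.6 and 47.5 in YAPS127A,S94A, 68.6, 64.3 and 72.9 in YAPS127A, and 111, 116 and 114 in YAP2SA. As with FJX1, the groups formed 3 separate levels, in which YAPS127A,S94A overlapped with Control, with 1 of its libraries, replicate 1, below all Control libraries. MYOF, the most abundant of the 10 in Control, rose by 1.18 on the log2 scale (SE 0.08, limma adjusted p = 5.8e-07) in YAP2SA and by 0.46 (SE 0.08, limma adjusted p = 0.00554) in YAPS127A. In mean FPKM this was 2.29 and 1.38 times.

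ASAP1 encodes a GTPase-activating protein for Arf proteins that is found at focal adhesions. It is on chr8:131064350-131455920, on the minus strand, with 30 exons. ASAP1 was at 11.95, 10.1 and 11.6 FPKM in Control, 11.9, 10.9 and 10.8 in YAPS127A,S94A, 16.3, 14.6 and 13.7 in YAPS127A, and 20.9, 18.4 and 20.1 in YAP2SA. The order of the groups was that of MYOF with smaller steps, and YAPS127A did not overlap with Control. The log2 fold change was 0.77 in YAP2SA (SE 0.08, limma adjusted p = 3.0e-05) and 0.38 in YAPS127A (SE 0.08, limma adjusted p = 0.0237). The YAPS127A call was near the threshold: it was lost without the library labelled Control replicate 3 (limma adjusted p = 0.0518), and also when Control replicate 2, YAPS127A replicate 1 or YAPS127A replicate 2 was left out, with limma adjusted p up to 0.0876. It was lost with median-ratio scaling and quantile normalization as well (limma adjusted p = 0.0516 and 0.0686).

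DOCK5 encodes an exchange factor that activates the GTPase Rac. DOCK5 is on chr8:25042204-25275598, on the plus strand, with 52 exons, but the table gives 1 value for a locus that lists 4 symbols, PPP2R2A among them, a gene that starts 873 kb further along on GRCh37. The value of this locus therefore cannot be assigned to DOCK5 alone. The locus was at 33.3, 31.9 and 30.5 FPKM in Control, 31.4, 34.1 and 31.6 in YAPS127A,S94A, 34.2, 34.7 and 30.2 in YAPS127A, and 39.0, 38.3 and 36.2 in YAP2SA. All YAP2SA libraries lay above the other 9, which overlapped, but the step was small. The log2 fold change was 0.24 (SE 0.06, limma adjusted p = 0.0123) in YAP2SA and 0.05 (95% interval -0.10 to 0.19, limma adjusted p = 0.770) in YAPS127A. The YAP2SA call was lost with quantile normalization (limma adjusted p = 0.116).

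DDAH1 encodes an enzyme that degrades asymmetric dimethylarginine, an inhibitor of nitric oxide synthases. DDAH1 is on chr1:85784164-86044046, on the minus strand, with 6 exons, and lies head to head with CYR61, another YAP target, whose annotated start is 2397 bases away. DDAH1 was at 5.95, 5.34 and 7.10 FPKM in Control, 5.53, 5.47 and 5.40 in YAPS127A,S94A, 9.43, 9.95 and 8.44 in YAPS127A, and 16.9, 15.8 and 17.7 in YAP2SA. The library labelled Control replicate 3 was the highest of the Control libraries and still lay below every YAPS127A library. DDAH1 rose by 1.33 on the log2 scale in YAP2SA (SE 0.09, limma adjusted p = 8.5e-07) and by 0.53 in YAPS127A (SE 0.09, limma adjusted p = 0.00602). CYR61, which encodes a secreted matrix protein, was at 15.3, 15.6 and 19.7 FPKM in Control, 41.7, 39.3 and 36.1 in YAPS127A, and 96.4, 133 and 88.1 in YAP2SA. Its log2 fold change in YAP2SA was 2.57 (SE 0.16, limma adjusted p = 3.0e-07), larger than that of its neighbour.

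RBMS3 encodes an RNA-binding protein. Its gene is the longest of the 10, with 1436 kb on chr3:28616282-30051882, on the plus strand. RBMS3 was at 3.26, 3.14 and 4.90 FPKM in Control, 3.26, 2.64 and 3.91 in YAPS127A,S94A, 4.54, 6.68 and 4.27 in YAPS127A, and 3.86, 7.10 and 5.60 in YAP2SA. YAP2SA overlapped with Control, and replicate 1 was the lowest of its 3 libraries. The log2 difference from Control was 0.44 in YAP2SA (95% interval -0.05 to 0.93, limma adjusted p = 0.137) and 0.37 in YAPS127A (95% interval -0.12 to 0.86, limma adjusted p = 0.404), so the data neither show a rise nor leave out one of nearly 2-fold. In YAP2SA it passed the test only without YAP2SA replicate 1 (limma adjusted p = 0.0438), and without the library labelled Control replicate 3 it did not (log2 difference 0.60, limma adjusted p = 0.0678).

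Of the 9 genes called higher in YAP2SA against Control, 6 also changed more than 2-fold in mean FPKM, where the background was 7.59%. The 6 were ANKRD1, CRIM1, CCDC80, FJX1, DDAH1 and MYOF. The median log2 fold change of the 10 genes was 1.25, beside 0.01 over all loci tested. The 3 YAP2SA libraries lay above all Control libraries for 9 genes (28% of all loci tested). In YAPS127A against Control the median was 0.49, beside a median near 0 for all loci, and 7 genes lay higher without overlap (11.6% of all loci). Without the library labelled Control replicate 3 the counts of calls were 9 and 6 and those of genes past both thresholds 6 and 2, since ASAP1 was lost in YAPS127A. Shares over all loci were not computed for this fit. When only the 6 libraries compared entered the fit, 4 genes were called in YAPS127A, and DDAH1, FJX1 and ASAP1 were not (limma adjusted p = 0.0810, 0.0996 and 0.129).

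Without the library labelled Control replicate 3, the log2 fold change in YAP2SA was 3.22 for ANKRD1, 2.35 for CCDC80, 2.31 for CRIM1, 1.42 for DDAH1, 1.32 for FJX1, 1.13 for MYOF, 0.79 for ASAP1 and 0.61 for NT5E. The ratio of mean FPKM was then 9.76 for CCDC80 and 2.97 for DDAH1. DOCK5 stayed just inside the threshold (0.21, limma adjusted p = 0.0476). In YAPS127A the values were 1.38 for ANKRD1, 0.95 for CCDC80, 0.91 for CRIM1, 0.63 for DDAH1, 0.61 for FJX1 (limma adjusted p = 0.0469) and 0.41 for MYOF (limma adjusted p = 0.0249). None of these called values changed direction. Among differences that were not called, NT5E turned from -0.07 to 0.05 in YAPS127A. ANKRD1, DOCK5, CCDC80 and RBMS3 turned in YAPS127A,S94A against Control, also without a call. For 1 gene at a time, 3 libraries against 3 allow no exact permutation p under 0.1, so the calls rest on the spread that limma pools over loci and groups.

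**Figure D2:**
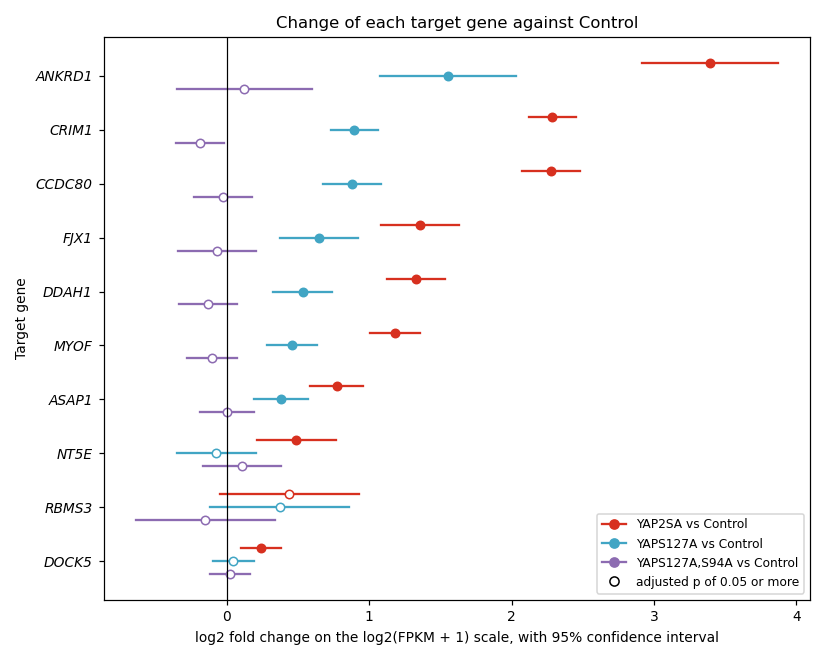
Log2 fold change against Control on the log2(FPKM + 1) scale (horizontal axis) for each target gene (vertical axis), with 95% confidence intervals from limma. Filled points have an adjusted p under 0.05. YAP2SA intervals lie above 0 for all genes but RBMS3, YAPS127A intervals for 7, and the YAPS127A,S94A points are all open, between -0.19 and 0.12.

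In order of the change in YAP2SA, the genes ran ANKRD1, CRIM1, CCDC80, FJX1, DDAH1, MYOF, ASAP1, NT5E, RBMS3 and DOCK5. The 95% intervals of neighbours lay apart only between ANKRD1 and CRIM1, between CCDC80 and FJX1 and between MYOF and ASAP1. The 7 genes called in YAPS127A were the first 7 in this order.

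YAPS127A,S94A against Control compares the population with YAP that cannot bind TEADs and the population with the empty vector. None of the 10 was called by limma in either direction, beside 0.0864% of all loci tested called higher and 0.093% called lower, and 1 had an unadjusted p under 0.05. Differences ranged from -0.19 for CRIM1 to 0.12 for ANKRD1, with a median of -0.05, and the libraries of both groups overlapped for all 10 genes, where 4.7% of all loci lay wholly higher and 3.98% wholly lower. Among the genes that rose with YAPS127A, the upper end of the 95% interval was -0.02 for CRIM1, 0.07 for DDAH1 and MYOF, 0.17 for CCDC80, 0.19 for ASAP1 and 0.21 for FJX1, each below the estimate of the same gene in YAPS127A. For ANKRD1 it was 0.60, since its low level gave a wide interval, against 1.55 in YAPS127A. RNA of the YAP1 locus was at 149 to 162 FPKM in YAPS127A,S94A, within the range of the other mutants together, which gives no level of YAP protein. Leaving out the library labelled Control replicate 3 gave no call either.

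The mutants that differ in S94A alone, YAPS127A and YAPS127A,S94A, were also compared directly. The means use no Control library, but the estimate of spread behind the SE and adjusted p comes from all 12 libraries. YAPS127A was higher for 7 of the 10 genes and lower for none, where 6.36% of all loci tested were called higher and 4.31% lower, and 3 of them, ANKRD1, CRIM1 and CCDC80, also differed more than 2-fold (background 2.54%). ANKRD1 differed by 1.43 (SE 0.21, limma adjusted p = 0.00195), CRIM1 by 1.08 (SE 0.08, limma adjusted p = 9.7e-06) and CCDC80 by 0.91 (SE 0.09, limma adjusted p = 0.000139). FJX1 differed by 0.71, DDAH1 by 0.67, MYOF by 0.56 and ASAP1 by 0.38, with limma adjusted p from 0.00113 to 0.0171. The ASAP1 call was lost without YAPS127A replicate 1, YAPS127A,S94A replicate 2 or YAPS127A,S94A replicate 3, with limma adjusted p up to 0.0698, and when only the 6 libraries compared entered the fit (limma adjusted p = 0.0527), which left 6 genes. NT5E was lower in YAPS127A by an amount that did not pass (-0.18, 95% interval -0.46 to 0.09, limma adjusted p = 0.412), and DOCK5 did not pass either (0.02, 95% interval -0.12 to 0.17, limma adjusted p = 0.862). RBMS3 lay higher in all 3 YAPS127A libraries, as did 8 of the 10 genes and 15.2% of all loci, but did not pass (0.52, 95% interval 0.03 to 1.01, limma adjusted p = 0.175).

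**Figure D3:**
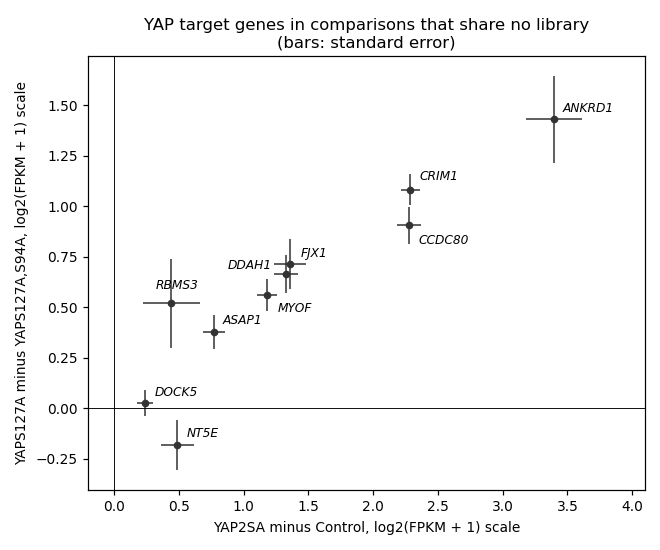
Log2 difference of each target gene in YAP2SA minus Control (horizontal axis) and in YAPS127A minus YAPS127A,S94A (vertical axis), whose means use different libraries. Bars are standard errors from limma, with an estimate of spread shared by all 12 libraries. ANKRD1 is highest on both axes, at 3.39 and 1.43, while DOCK5 and NT5E lie at 0.02 and -0.18 on the vertical axis.

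In this comparison the genes from ANKRD1 to MYOF held the same first 6 places as in YAP2SA against Control, with which it shares no library, and RBMS3, ASAP1, DOCK5 and NT5E followed. The order is given as a description, since both comparisons use the same genes and the same scale.

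YAP2SA against YAPS127A compares populations whose vectors differ in S381A. YAP2SA was higher for 9 of the 10 genes (background 18.3%) and lower for none (14.5%), its libraries lay above all YAPS127A libraries for 9 (24.1%), and 3 of these also differed more than 2-fold (background 5.17%). These were ANKRD1, with a log2 difference of 1.84 (SE 0.21, limma adjusted p = 8.0e-05), CCDC80 with 1.401 (SE 0.09, limma adjusted p = 1.1e-06) and CRIM1 with 1.39 (SE 0.08, limma adjusted p = 2.6e-07). DDAH1 differed by 0.79, MYOF by 0.72, FJX1 by 0.71 and ASAP1 by 0.39. DOCK5 differed by 0.19 (SE 0.06, limma adjusted p = 0.0419), a call that was lost without Control replicate 2, YAPS127A replicate 1 or 3, YAPS127A,S94A replicate 1 or 3, or any 1 YAP2SA replicate, with limma adjusted p up to 0.126, and with both other scalings. RBMS3 did not pass (0.07, 95% interval -0.42 to 0.56, limma adjusted p = 0.841). RNA of the YAP1 locus was at 130 to 149 FPKM in YAP2SA and 159 to 187 in YAPS127A. These values give no level of YAP protein, whose part in the differences was not tested.

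**Figure D4:**
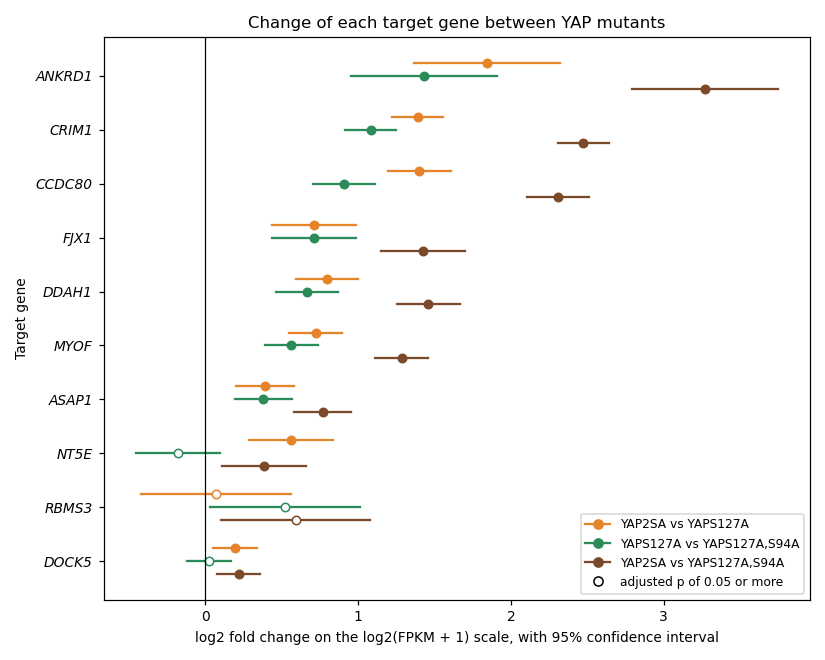
Log2 difference between YAP mutants on the log2(FPKM + 1) scale (horizontal axis) for each target gene (vertical axis), with 95% confidence intervals from limma, and filled points where the adjusted p is under 0.05. ANKRD1, CRIM1 and CCDC80 differ most in all 3 comparisons, up to 3.27 for ANKRD1 in YAP2SA against YAPS127A,S94A, and RBMS3 is open throughout.

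YAP2SA against YAPS127A,S94A gave 9 calls upward (background 23.2%) and none downward (20.3%). Here too the means use no Control library, but the shared estimate of spread does. The libraries lay apart for 9 genes (29.7%). Of the called genes, 6 also differed more than 2-fold (background 7.81%). ANKRD1 differed by 3.27, CRIM1 by 2.47, CCDC80 by 2.31, DDAH1 by 1.46, FJX1 by 1.42 and MYOF by 1.28. The smaller differences were 0.77 for ASAP1, 0.38 for NT5E (SE 0.12, limma adjusted p = 0.0290) and 0.22 for DOCK5 (SE 0.06, limma adjusted p = 0.0189). The NT5E call was lost without YAPS127A,S94A replicate 1 or 2 or YAP2SA replicate 1 or 2 (limma adjusted p up to 0.104), and the DOCK5 call without YAPS127A,S94A replicate 1 or 3 or YAP2SA replicate 1 or 2 (limma adjusted p up to 0.0662). Both were also lost with quantile normalization. RBMS3 was just short of the threshold, with a difference of 0.59 (SE 0.22, limma adjusted p = 0.0517), and was called without YAP2SA replicate 1 (limma adjusted p = 0.0172), and also when the library labelled Control replicate 3 or YAPS127A replicate 2 was left out of the shared estimate of spread (limma adjusted p = 0.0430 and 0.0408).

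The 10 genes overlap with the lists of YAP targets in use. Of them, 9 are on a 22-gene list of YAP/TAZ targets derived across cancers (Wang), all but DDAH1. The Cordenonsi list of conserved YAP targets was derived from breast epithelial cells. The copy used here has 45 genes in alphabetical order, ends at SGK1 and may be incomplete, so results on it are for those genes alone. It holds ANKRD1, CRIM1, DDAH1 and ASAP1. ANKRD1, CRIM1, DDAH1 and FJX1 are in the signature that the study itself built, partly on these libraries, so the rise of these 4 is not independent evidence of its direction. The study also counts CYR61, CTGF and AXL, which are on the Wang list, among its signature genes. Their rise is not independent evidence either. The other 13 genes of the Wang list were all tested. In YAP2SA against Control 11 of them were higher (22.9% of all loci tested) and 1 lower (19.5%), with a median log2 fold change of 1.56. F3, the initiator of coagulation, rose by 2.97 and CYR61 by 2.57, and IGFBP3, an insulin-like growth factor binding protein, fell by 2.30. In YAPS127A against Control 9 were higher (4.56% of all loci tested) and 1 lower (1.75%), with a median of 0.56. In YAPS127A,S94A none passed (median -0.08), where 0.0864% of all loci were called higher and 0.093% lower. CTGF, the matricellular protein most used as a YAP readout, was at 12.7, 12.2 and 12.7 FPKM in Control, 9.94, 12.8 and 10.9 in YAPS127A,S94A, 26.6, 23.5 and 24.3 in YAPS127A, and 52.1, 66.1 and 55.5 in YAP2SA. Its log2 fold change in YAP2SA was 2.11 (limma adjusted p = 4.9e-08), between those of CCDC80 and FJX1.

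Of the genes not among the 10, CYR61, CTGF, AMOTL2 and AXL are on both lists. They were counted with the Wang list and all rose in YAP2SA, AMOTL2 by 1.90 and AXL by 2.02. Of the 37 genes in the copy of the Cordenonsi list that are neither on the Wang list nor among the 10, 36 were tested. In YAP2SA against Control 21 were higher and 6 lower, with a median of 0.43, beside 22.9% of all loci called higher and 19.5% called lower. FSTL1 had the largest rise, 4.60 (SE 0.94, limma adjusted p = 0.00245), but its locus is shared with the microRNA gene MIR198. It was at 2.63, 2.56 and 5.03 FPKM in Control and 93.7, 109 and 106 in YAP2SA. Its SE is wide and uses the spread of all groups, and in YAPS127A,S94A it was at 2.92, 84.0 and 3.08 FPKM. DLC1 had the next largest rise, 2.27 (SE 0.10, limma adjusted p = 3.4e-08), while EMP2 fell by 1.22 and SGK1, a kinase, fell by 0.75. In YAPS127A 8 were higher (4.56% of all loci) and none lower (1.75%). In YAPS127A,S94A none passed, where 0.0864% of all loci were called higher and 0.093% lower. Without the library labelled Control replicate 3, 21 of these genes were higher and 5 lower in YAP2SA and 5 were higher in YAPS127A, while the Wang counts were 11 higher and 1 lower in YAP2SA and 9 higher and 1 lower in YAPS127A. Shares over all loci were not computed for this fit. In the same fit CYR61 rose by 2.68 and CTGF by 2.12 in YAP2SA.

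For the 6 genes past both thresholds in YAP2SA, the loci with the most similar profile over the 12 libraries were looked for among 11717 candidates, by the root mean square distance between centred log2(FPKM + 1) values. Nearest to CRIM1 was RFTN1, at 0.0928 on the log2 scale, where CRIM1 itself ranged over 2.69, and next was ECSCR at 0.0998. CCDC80 was nearest to IGFN1 (0.0955) and TMEFF2 (0.102), and DDAH1 to VOPP1 (0.0774) and VCL (0.0947). MYOF was nearest to SLC7A1 (0.0715) and FLII (0.0732), and FJX1 to TUBB6 (0.0933) and SYDE1 (0.119). ANKRD1 had no neighbour as close, with BTBD11 at 0.244 and SCARA3 at 0.245, and its own values ranged over 3.94. BTBD11 had the same steps at a similar level, with mean FPKM of 0.486 in Control, 0.340 in YAPS127A,S94A, 2.62 in YAPS127A and 12.01 in YAP2SA. Other neighbours lay near 0 in Control, where the added 1 FPKM shrinks their change. Mean FPKM in Control and YAP2SA was 0.0155 and 3.81 for IGFN1, 0.0571 and 4.09 for TMEFF2, and 0.0272 and 4.43 for ECSCR. Their ratios of means were far larger than those of CCDC80 and CRIM1, so they are alike on this scale only. The distances describe likeness in these 12 libraries, in which the 4 groups set most of the profile.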

How the data were processed

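The authors mapped reads to hg19 (GRCh37) and its UCSC known genes with TopHat2 2.0.4, assembled and summarised transcripts with Cufflinks 2.0.2, and deposited 1 table of log2(FPKM + 1) per locus for 12 A375 libraries, 3 per group. The deposited log2 values carry no counts, so no count test was used. The table's 31588 entries held 3 identical ones, which were removed. The values of 12 libraries entered 1 limma fit (version 3.58.1, R 4.3.3) with a mean for each group and the trend option, over the 15055 loci that reached 1 FPKM in 3 or more libraries, for 6 comparisons, with Benjamini-Hochberg adjustment over all loci tested. The authors' own differential expression from reads with Cufflinks was not repeated. A second rule also asked for a ratio of mean FPKM above 2.

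The fit was tested on simulated data for YAP2SA against Control, where 187 of 200 changed loci were recovered and 9 others were called among 15055. These are totals over loci. Recovery at the levels and sizes of change of the 10 genes was not tested separately, nor was it tested for the other comparisons. The 10 genes and the lists were chosen with earlier results of these data known. The text names the 10 genes, YAP1, CYR61, CTGF, of each list up to 2 genes with the largest rise and 2 with the largest fall among called ones, and the 2 nearest profiles of each gene past both thresholds. SOX10, S100B, MITF, SOX9, COL1A1, KRT5 and KRT14 were picked from the marker lists, and AMOTL2 and AXL from the overlap of both lists, after their values were seen. The lists were read from the study's supplementary table.

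Gene coordinates come from GENCODE on GRCh37, and promoter sequences from RefSeq on GRCh38.p14. Motifs were searched on both strands in the 250 bases before each start. The primers come from the study's supplementary list and were matched to the annotated transcript. Figures used matplotlib 3.10.9 in Python 3.11.15. Alternatives were another pseudocount, other filters, median-ratio and quantile scaling, only the libraries compared, a replicate block, no intensity trend, an adjusted p of 0.01, and each library left out in turn.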

Additional observations from a re-analysis of the deposited data

How the results depend on the processing

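For the 10 genes and 6 comparisons, 60 single results were refitted under 21 alternatives, giving 1260 values. Of the 60, 50 kept their call under every alternative and 10 changed it, with 43 values that lost a call and 5 that gained one. The sign turned for 17 values in 8 results, none of which was called. With only the 6 libraries compared, 4 genes in place of 7 were higher in YAPS127A against Control, since DDAH1, FJX1 and ASAP1 were lost (limma adjusted p = 0.0810, 0.0996 and 0.129), where fewer samples enter the fit. In YAPS127A,S94A against Control, ASAP1 turned from 0.001 to -0.0023 with median-ratio scaling and -0.0090 with quantile normalization. With 1 library left out at a time, its log2 difference ranged from -0.067 to 0.046, that of ANKRD1 from -0.062 to 0.33, DOCK5 from -0.016 to 0.052, CCDC80 from -0.089 to 0.046 and RBMS3 from -0.26 to 0.012. In the same fits NT5E ranged from -0.17 to 0.050 in YAPS127A against Control, DOCK5 from -0.011 to 0.086 in YAPS127A against YAPS127A,S94A, and RBMS3 from -0.10 to 0.27 in YAP2SA against YAPS127A. The number of genes called higher ranged from 9 to 10 in YAP2SA against Control, 6 to 7 in YAPS127A against Control, 8 to 9 in YAP2SA against YAPS127A, 6 to 7 in YAPS127A against YAPS127A,S94A and 7 to 10 in YAP2SA against YAPS127A,S94A, and was 0 in YAPS127A,S94A against Control. The cause of the lost calls was not tested.

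Replicate numbers recur in all groups, but of 18 pairs of libraries with the same number only 2 had deviations from the group means that correlated above 0.1 (r from -0.149 to 0.163), and 16 of 36 comparisons were best with the own number, so the numbers were not taken as pairs. With the replicate block 9, 7, 0, 9, 7 and 9 genes were higher in the 6 comparisons, and no call of a single gene changed. Each gene has 1 locus, so summing over several loci was not run.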
